A study of Mus musculus with 2 samples.

Results

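Gata6, Gata6os, Gata4, Sox17, Sox7, Foxa2, Foxq1 and Pdgfra are described here in single mouse embryonic stem cells. They were chosen by symbol, and all 8 of the 8 symbols were found among the 55415 features. Of these genes 6 encode transcription factors, Pdgfra encodes a growth factor receptor, and Gata6os is a noncoding transcript that starts beside Gata6 on the opposite strand. The cells came from an embryonic stem cell line (mESC) with a GFP reporter driven by the promoter of MERVL, an endogenous retrovirus transcribed in cells that resemble the 2-cell embryo, and with H2B-mIFP, a far-red nuclear label; both groups carry both constructs. There was 1 library for the reporter-positive cells and 1 for the reporter-negative cells. No treatment is named, and how the cells were sorted is not stated. The study's stated question is where cells go after this 2-cell-like state.

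Endoderm is the lineage that yields the yolk sac epithelia and, later, the lining of the gut. In the blastocyst, Gata6 is needed for the first of it, the primitive endoderm, where it opposes Nanog, and FGF4 signalling through ERK favours that fate. Gata4, Sox17 and Sox7 follow Gata6, Pdgfra is a standard surface marker of the lineage, and cultures of mESC are known to hold a minor fraction of primitive endoderm-like cells. Zscan4 genes are transcribed in the 2-cell embryo and in bursts in mESC.

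After filtering, the positive library held 4596 cells and 138303336 UMIs (molecule counts), and the negative library 3832 cells and 156406894 UMIs. The median cell had 29554 and 39100 UMIs, with mitochondrial shares of 2.56% and 1.60%. GFP had 205 and 0.454 CPM (UMIs of a gene per 1000000 UMIs of its library), in the direction of the labels. All 8 mESC markers looked up were present in both libraries, at a summed 2652 and 3324 CPM. The libraries share 3 cell barcodes, which hold 26 and 0 UMIs of the 7 genes other than Gata6os, and leaving those cells out moved no count of genes past a threshold. With 1 library a group there is no replicate check and no test, batch and group cannot be told apart, and every interval is a 95% interval for counting error alone.

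Gata6 lies at chromosome 18, 11052064 to 11085635 on the plus strand of mm10, and Gata6os (1010001N08Rik in GENCODE M21, matched by its Ensembl ID) at 10987944 to 11052567 on the minus strand. Their gene bodies overlap by 504 bases, of which 93 are exonic in both. Whether reads were counted by strand is not given in the sources used here, so reads from that overlap cannot be told apart. Gata4 (14:63198922-63271692) and Sox7 (14:63943673-63950732) lie on the same chromosome. Sox17 is at 1:4490931-4497354, Foxa2 at 2:148042877-148046969, Foxq1 at 13:31556134-31560976 and Pdgfra at 5:75152292-75198215.

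Each of the 8 genes had a higher level in the positive than in the negative library, by less than 2-fold. Gata6, the earliest of these factors in the embryo, had the highest level, 60.7 CPM (Poisson interval 59.4 to 62.0) against 42.2 CPM (41.2 to 43.2), a ratio of 1.44 (1.39 to 1.49). Its neighbour Gata6os had 6.39 against 6.02 CPM, a ratio of 1.06 whose interval, 0.967 to 1.16, includes 1. Gata4, the related GATA factor, had 5.33 against 3.25 CPM, a ratio of 1.64 (1.46 to 1.84).

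The SOX factors differed by similar ratios at unequal levels. Sox17, a regulator of endoderm and of blood vessels, had 17.3 CPM (16.6 to 18.0) against 12.8 CPM (12.2 to 13.4), a ratio of 1.35 (1.27 to 1.43). Sox7, from the same SOX subgroup, had 3.02 against 1.88 CPM, a ratio of 1.61 (1.38 to 1.87). Of the forkhead factors, Foxq1 was abundant, with 36.9 CPM (35.9 to 38.0) against 22.0 CPM (21.2 to 22.7), and its ratio was 1.68 (1.61 to 1.76). Foxa2, a pioneer factor of definitive endoderm, was the lowest of the 8, with 179 UMIs or 1.29 CPM against 112 UMIs or 0.716 CPM, a ratio of 1.81 (1.42 to 2.31). Pdgfra had the largest ratio, 1.89 (1.78 to 2.02), from 18.7 CPM (18.0 to 19.4) against 9.89 CPM (9.40 to 10.4).

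A gene was called when its CPM ratio was at least 2 with at least 50 UMIs in all. None of the 8 genes was called in either direction, whereas 18.3% of 19341 genes were called higher and 2.48% lower in the positive library. The median log2 ratio over all those genes was 0.26 toward the positive library. Gata6os, at 0.09, lay below that median, and the other 7 lay above it, from 0.43 for Sox17 to 0.92 for Pdgfra. TMM and median-of-ratios scaling bring that median to -0.03, with 2547 and 2551 genes higher and 1099 and 1095 lower, against 3533 and 480 by CPM. Under them the 7 stayed higher, while the Gata6os log2 ratio became -0.21 under each, and it was -0.07 as a mean of the CPM of each cell. Summed, the 7 genes without Gata6os had 143 CPM (141 to 145) and 92.7 CPM (91.2 to 94.2), a positive over negative ratio of 1.55 (1.51 to 1.58).

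**Figure D1:**
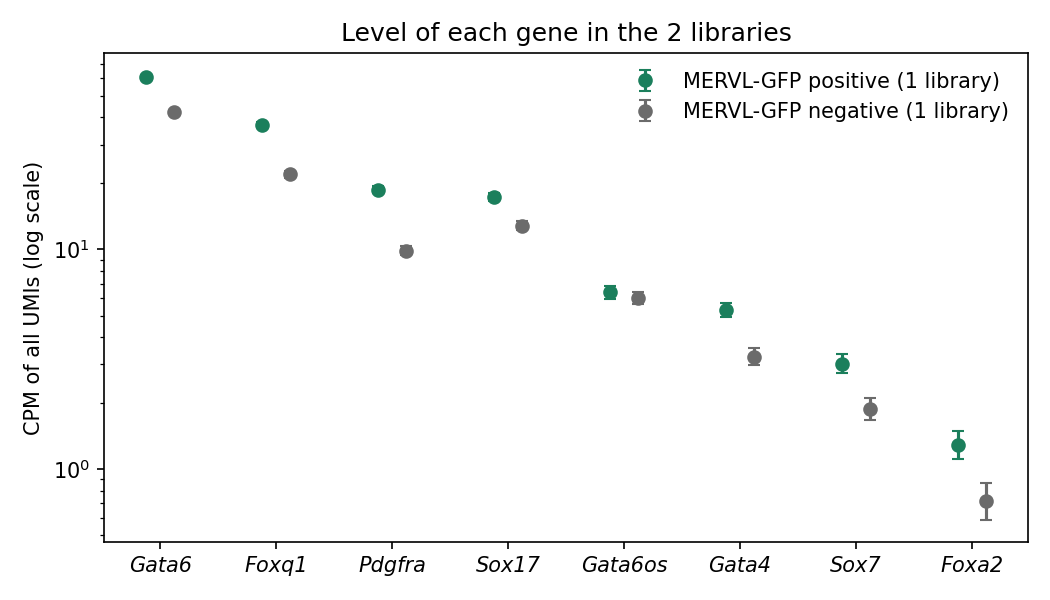
Level of each gene (CPM of all UMIs, log axis) in the positive library (green) and the negative library (grey), 1 library each; bars are 95% Poisson intervals. Intervals are apart for 7 genes and overlap for Gata6os, at 6.39 and 6.02 CPM.

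By CPM the order in the positive library was Gata6, Foxq1, Pdgfra, Sox17, Gata6os, Gata4, Sox7 and Foxa2, and in the negative library Sox17 stood above Pdgfra. The intervals of neighbours in the order were apart in the negative library. In the positive library those of Pdgfra and Sox17 met at 18.0 CPM, and the others were apart. Per kilobase of the longest annotated transcript the order was the same in both libraries: Gata6, Foxq1 (7.63 and 4.53 CPM per kilobase), Sox17 (5.32 and 3.95), Gata6os (3.25 and 3.07), Pdgfra (2.74 and 1.45), Gata4, Sox7 and Foxa2. Whether these counts scale with transcript length is not stated, so the order per kilobase may not be an order of level.

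Most cells held none of these transcripts, and the UMIs were concentrated. To compare cells at equal depth, each was thinned to 10000 UMIs, which left 4402 positive-library and 3824 negative-library cells. Positive-library cells with Gata6 made up 15.3% (14.2 to 16.4, exact binomial) and those of the negative library 8.71% (7.83 to 9.65); unthinned the shares were 24.9% and 16.6%. Foxq1 was detected in 10.9% and 6.43%, Pdgfra in 9.29% and 4.97%, and Sox17 in 9.29% and 4.52%. Gata4 stood at 4.11% and 2.64%, Gata6os at 3.66% and 3.71%, Sox7 at 2.09% and 1.67%, and Foxa2 at 1.23% and 0.758%. The intervals of Gata6os, Sox7 and Foxa2 overlap between libraries, and those of the other 5 are apart.

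The cells with Gata6 held a mean of 3.84 (positive) and 4.78 (negative library) thinned Gata6 UMIs. For Sox17 the means were 1.81 and 2.80. Over all UMIs, 90 percent of the Gata6 count lay in 9.68% of positive-library cells and in 5.43% of negative-library cells. For Sox17 it lay in 12.3% and 3.89%, the widest spread of the 8 genes in the positive library.

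The 7 genes other than Gata6os were then counted per cell. Cells with none of them made up 72.7% of the positive and 87.3% of the negative library. A single one was detected in 731 positive-library cells, or 16.6% (15.5 to 17.7), and 268 negative-library cells, or 7.01% (6.22 to 7.86). At least 2 were detected in 472 positive-library cells, or 10.7% (9.82 to 11.7), and in 217 negative-library cells, or 5.67% (4.96 to 6.46). At the high end the libraries were closer: 4 or more were found in 4.45% (3.86 to 5.10) and 3.79% (3.21 to 4.45), intervals that overlap. All 7 were detected in 1 positive-library and 4 negative-library cells.

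**Figure D2:**
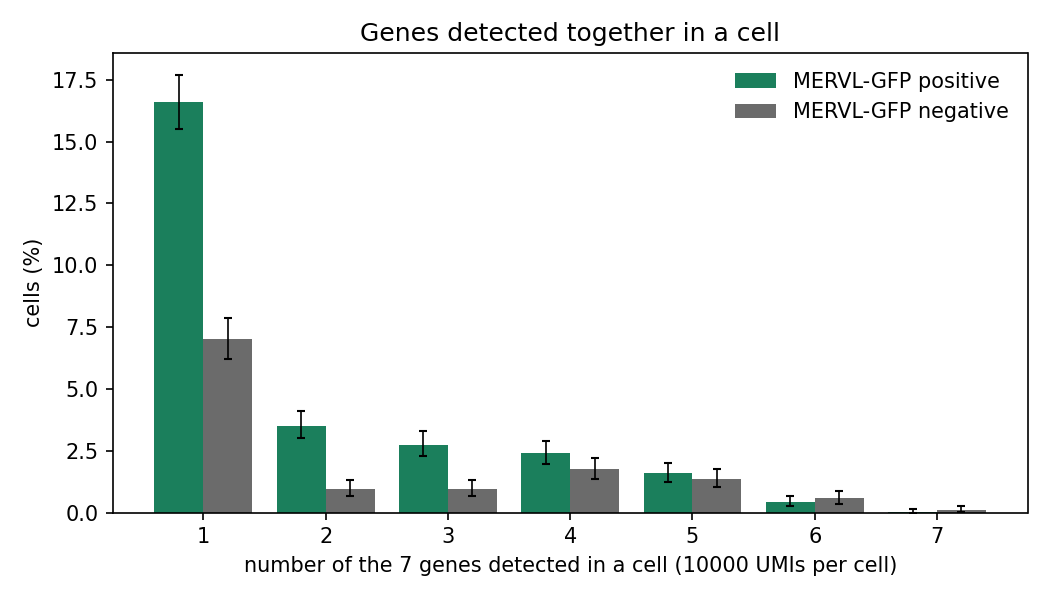
Share of cells (%) in which 1 to 7 of the genes were detected after thinning to 10000 UMIs, positive library green, negative library grey; bars are 95% exact binomial intervals and cells with none are left out. The gap between the libraries is widest at 1 gene, 16.6% against 7.01%, and the intervals overlap from 4 genes up.

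Cells with at least 2 of the genes had depths close to the rest. In the positive library their median was 30586 UMIs against 30159, with mitochondrial shares of 2.24% against 2.57%, and in the negative library 39661 against 39094 UMIs. Cells above 2 times the median UMIs made up 2.33% of them against 1.76% of the rest in the positive library, and 3.69% against 1.91% in the negative library. They held 83.6% of the thinned Gata6 UMIs in each library, the same UMIs by which cells were counted as having the gene. For Sox17 the shares were 75.4% (positive) and 96.3% (negative library).

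No gene was more common than Gata6 at any number of genes detected. Among cells with a single gene it was the one in 36.8% (33.3 to 40.4) of positive-library and 44.4% (38.4 to 50.6) of negative-library cells. Among cells with 3 genes it was present in 108 of 121 and in 36 of 36, and the most frequent set was Gata6 with Foxq1 and Pdgfra, in 47 and 17 cells. A gene's share tends to be larger where more genes are detected, by construction. Sox7 was in 3.31% of positive-library cells with 3 genes, 19.8% with 4 and 47.1% with 5. The negative library had 5.56%, 14.9% and 42.3%.

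Sox17 stood apart in single-gene cells. It was the sole gene detected in 166 of 731 such cells in the positive library, 22.7% (19.7 to 25.9), and in 17 of 268 in the negative library, 6.34% (3.74 to 9.96). Foxq1 (18.6% and 22.4%) and Pdgfra (13.7% and 13.1%) had intervals that overlap between the libraries.

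Detection of each gene was associated with that of every other. For all 42 ordered pairs of the 7 genes, the share of cells with the other gene was higher among cells with the first gene than among cells without it, and the intervals were apart, in each library. The median of these 42 folds was 7.53 in the positive library (4.25 to 29.3) and 23.5 in the negative library (10.9 to 196). All pairs in a library come from the same cells, so these folds are not independent of each other.

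In the positive library Foxq1 was found in 44.1% of cells with Gata6 and 4.93% of cells without it. The negative library had 55.0% and 1.80%. Pdgfra, the receptor, was found in 39.5% of positive-library cells with Gata6 and 3.83% without, and in 46.5% of negative-library cells with Gata6, a fold of 46.4 over those without. The lowest of the 42 folds in the positive library was that of Gata6 among cells with Sox17: Gata6 was in 49.9% of the 409 cells with Sox17 and 11.7% of those without. In the negative library Gata6 was in 89.0% of the 173 cells with Sox17 and 4.90% of those without. Of cells with Gata6os, 80.7% of 161 in the positive library and 88.7% of 142 in the negative library had Gata6.

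**Figure D3:**
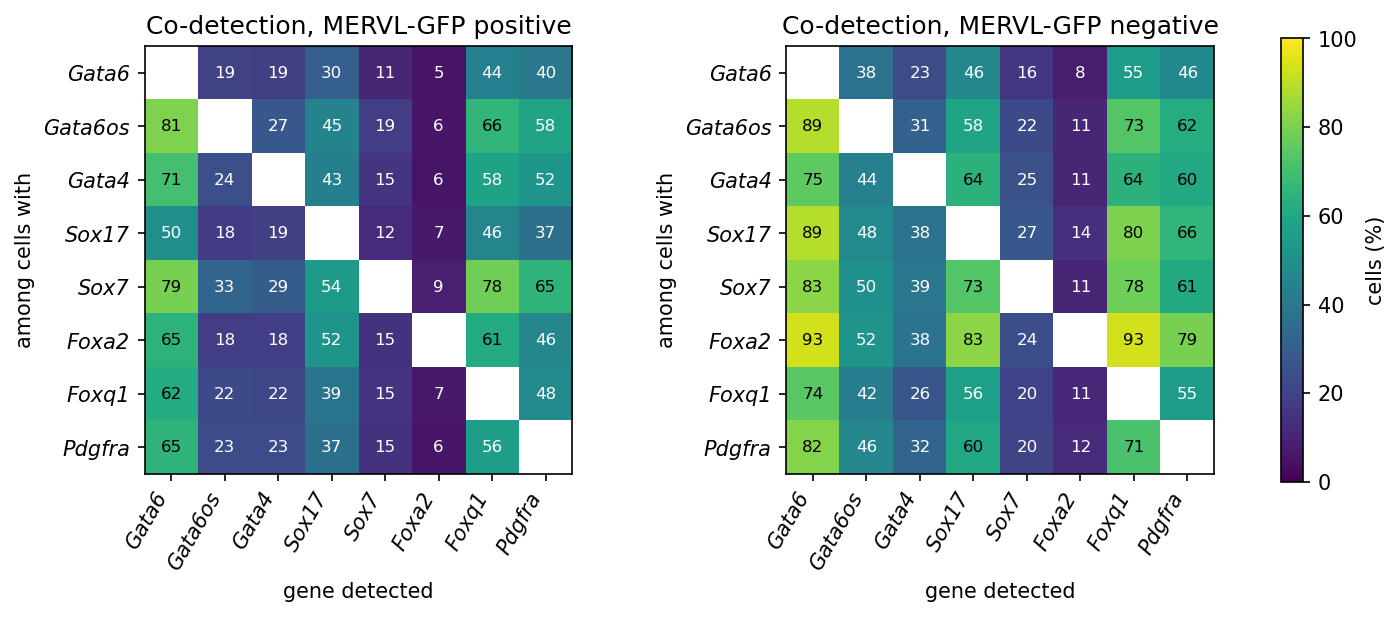
Share of cells (%, thinned to 10000 UMIs) in which the gene of the column was detected among cells with the gene of the row, for the positive library (left) and the negative library (right). Shares are lower on the left in every row, except for Foxq1 and Pdgfra in the Sox7 row. In the Sox17 row Gata6 is in 49.9% of cells on the left against 89.0% on the right.

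Levels were also split by how many other genes of the set a cell held, with the gene itself left out of that number and Gata6 left out for Gata6os. In cells with none of the others, Sox17 had 5.04 CPM in the positive and 0.818 CPM in the negative library, a ratio of 6.16 (5.01 to 7.62). That was the highest of the 8 ratios in such cells; Foxa2 followed at 4.05 (1.85 to 9.78, from 27 and 9 UMIs), Pdgfra at 3.57, Foxq1 at 3.20, Sox7 at 1.74, Gata4 at 1.71, Gata6 at 1.57 and Gata6os at 1.38. In cells with at least 2 of the others the direction was the opposite. Sox17 then had 122 CPM in the positive and 211 CPM in the negative library, a ratio of 0.578 (0.540 to 0.617), Gata6os a ratio of 0.566 (0.509 to 0.629) and Gata6 508 against 629.7 CPM, a ratio of 0.807 (0.777 to 0.838). Gata4 (0.849) and Foxq1 (0.874) had intervals below 1, and those of Sox7, Foxa2 and Pdgfra include 1.

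Restricting these cells to the ones with 0 thinned Zscan4 UMIs left 3 genes lower in the positive library with intervals below 1. Sox17 had a ratio of 0.665 (0.617 to 0.716), Gata6os 0.670 (0.597 to 0.753) and Gata6 0.897 (0.861 to 0.936). The intervals of the other 5 then included 1, with ratios from 0.983 for Gata4 to 1.07 for Foxa2.

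The 8 genes were next read against 7 endoderm genes outside the set: Lama1, Col4a1 and Col4a2, which encode basement membrane proteins, and Dab2, Cubn, Lrp2 and Amn, which serve endocytosis. Cells were classed by the thinned UMIs summed over these partner genes. At least 11 partner UMIs were found in 422 positive-library cells, or 9.59% (8.73 to 10.5), and in 126 negative-library cells, or 3.29% (2.75 to 3.91). In that class 97.6% of negative-library cells held at least 2 of the 7 genes and all 126 held at least 1. In the positive library 72.5% held at least 2 and 14.2% held none. The median depth there was 28720 UMIs in the positive and 39488 UMIs in the negative library before thinning.

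Each of the 8 genes was detected in a smaller share of these partner-rich cells in the positive than in the negative library. Gata6 was in 72.7% (68.2 to 76.9) against 96.8%, Foxq1 in 61.1% against 93.7%, Pdgfra in 55.0% against 77.8% and Sox17 in 39.6% (34.9 to 44.4) against 84.1%. Gata4 was in 27.0% against 42.9%, Gata6os in 24.4% against 55.6%, Sox7 in 16.4% against 34.9% and Foxa2 in 8.06% against 17.5%.

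Cells with 0 partner UMIs served as the comparison for cells without endoderm transcripts; the part of free RNA in their values was not tested. Gata6 was in 6.31% (5.12 to 7.67) of 1474 such positive-library cells and 3.10% (2.42 to 3.89) of 2294 such negative-library cells, with median depths of 31129 and 39292 UMIs. Sox17 was in 5.56% (4.45 to 6.86) and 0.523% (0.271 to 0.912). Foxq1 was in 2.92% and 1.57%, Pdgfra in 2.24% and 0.828%, and Gata4, Gata6os, Sox7 and Foxa2 were in under 1 percent of them in each library. Sox17 had 0.259 UMIs per Gata6 UMI (0.244 to 0.274) in the partner-rich and 0.670 (0.564 to 0.794) in the partner-free cells of the positive library. In the negative library the order was the reverse, 0.429 (0.401 to 0.458) and 0.140 (0.108 to 0.180). Foxq1 per Gata6 UMI was lower in the partner-free cells of both libraries, 0.518 against 0.691 and 0.251 against 0.765.

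**Figure D4:**
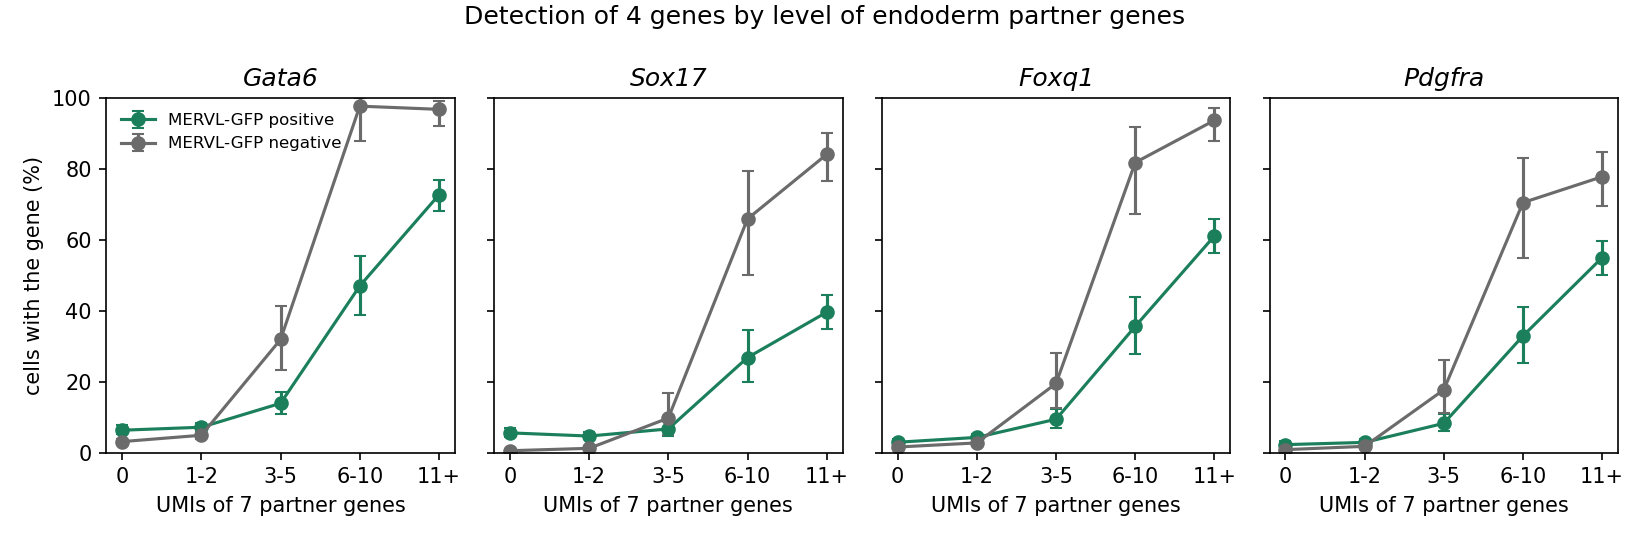
Share of thinned cells (%) with Gata6, Sox17, Foxq1 and Pdgfra by the summed UMIs of 7 partner genes, positive library green, negative library grey; bars are 95% exact binomial intervals. With at least 11 partner UMIs the negative library is higher for each gene, while at 0 partner UMIs Sox17 is higher in the positive library, 5.56% against 0.523%.

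Foxa2 and Pdgfra are the 2 of the 6 genes looked up for which the RefSeq table (GRCm38.p6) holds a promoter. They are shown because the genes were detected together and the set contains GATA, SOX and forkhead factors. The Foxa2 stretch is the 250 bases before an internal start, 2:148045465-148045714 on the minus strand, in an intron of the longer transcripts, and the Pdgfra stretch is 5:75152001-75152250 on the plus strand. Capitals mark matches on either strand to 1 of 3 kinds of word. The GATA words were AGATAA, the same with T first (TGATAA), and both with a final G (AGATAG, with T first TGATAG). The SOX words were ACAAAG, its variant ACAATG and the variant ACAATA. The forkhead words were TGTTTA and its variant TGTTTG. No matches overlap here.
Foxa2: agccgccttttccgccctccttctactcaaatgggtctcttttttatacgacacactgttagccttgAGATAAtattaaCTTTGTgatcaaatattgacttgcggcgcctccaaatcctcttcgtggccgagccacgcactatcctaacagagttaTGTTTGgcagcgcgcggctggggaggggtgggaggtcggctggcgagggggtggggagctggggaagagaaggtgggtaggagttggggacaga
Pdgfra: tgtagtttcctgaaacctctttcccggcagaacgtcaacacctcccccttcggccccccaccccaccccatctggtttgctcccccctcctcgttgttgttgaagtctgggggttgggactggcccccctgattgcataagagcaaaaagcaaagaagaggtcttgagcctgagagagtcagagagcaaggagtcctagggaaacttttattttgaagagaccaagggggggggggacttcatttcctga
The Foxa2 stretch holds 1 match of each kind, and the Pdgfra stretch holds none. The table holds 3 Foxa2 starts, and the one printed, chosen with its matches in view, is the one whose stretch holds all 3 kinds; of the others, 2:148046970-148047219 holds 1 forkhead match and 2:148045949-148046198 holds none. Of 32851 such stretches of 250 bases, 26.5% hold a GATA word, 30.5% a SOX word and 25.3% a forkhead word. A match is a run of letters and does not show a bound site.

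Zscan4 transcripts, summed per cell over 6 near-identical genes (Zscan4a to Zscan4f), were found in 2456 positive-library cells at equal depth and were absent in 1946. All 8 genes had a lower level in the cells with Zscan4, and 7 of the 8 were detected in a smaller share of them. The exception was Sox17, in 9.45% of cells with and 9.10% of cells without Zscan4, and its intervals overlap, as do those of Gata6, at 14.3% and 16.5%, and Foxa2, at 0.896% and 1.64%; those of the other 5 are apart. Gata6 had 45.8 CPM (44.2 to 47.4) in cells with Zscan4 and 77.7 CPM (75.6 to 79.9) in cells without, a ratio of 0.589 (0.564 to 0.616). Foxq1 had 25.9 against 49.4 CPM (ratio 0.525), Pdgfra 14.9 against 22.5 CPM (0.661), and Sox17 14.1 against 21.0 CPM (0.672). Gata4 had 4.04 against 6.83 CPM (0.592) and Sox7 2.20 against 3.96 CPM (0.557). By the size rule Gata6os (4.23 against 8.84 CPM, ratio 0.478) and Foxa2 (0.856 against 1.79 CPM, ratio 0.479) were called lower, 2 of 8, where 0.568% of 17415 genes were. None of the 8 was called higher, against 5.19% of genes.

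The 7 genes summed had 108 CPM (105 to 110.3) with Zscan4 and 183 CPM (180.0 to 187) without, a log2 ratio of -0.77 against a median of -0.03 over all genes. Another random thinning gave -0.66 and thinning to 5000 UMIs -0.49, and the count called lower was 1 and 0. With cells split by at least 1 GFP UMI in place of Zscan4 the summed log2 ratio was -0.20, with Gata6os at 0.08 and Pdgfra at 0.10. The share of cells with at least 2 of the genes was 8.92% with Zscan4 and 13.0% without. In the negative library 13 cells had a Zscan4 UMI, too few to compare: the summed ratio there was 0.938 (0.666 to 1.28).

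The difference widened with the number of Zscan4 UMIs for most of the genes. In classes of 0, 1 to 2, 3 to 9 and at least 10 Zscan4 UMIs (1946, 1264, 695 and 497 cells), Gata6 had 77.7, 58.3, 37.1 and 14.7 CPM. Foxq1 had 49.4, 33.5, 17.4 and 13.1 CPM, and Pdgfra 22.5, 17.1, 14.4 and 7.65 CPM. Sox17 had 21.0, 15.3, 12.0 and 13.3 CPM, so that in the top class its level was near that of Foxq1 and Gata6. The share of cells with Sox17 went the other way at the ends, 9.10% (7.85 to 10.5) at 0 and 12.1% (9.34 to 15.3) at 10 or more, with overlapping intervals, whereas for Gata6 it was 16.5% and 10.3%. With at least 10 against 0 Zscan4 UMIs, 7 of the 8 genes were called lower, all but Sox17 (ratio 0.634, 0.531 to 0.751), where 10.3% of 15591 genes were; the lowest ratios were those of Gata6os (0.132), Gata6 (0.189) and Sox7 (0.227).

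The classes differed in other ways. Median depth before thinning went from 32877 to 31284, 25888 and 20311 UMIs, the mitochondrial share from 2.35% to 3.19%, and the share of cells with GFP from 45.5% to 86.5%. The partner genes went from 421 to 281 CPM, and the share of cells with at least 11 partner UMIs from 10.6% to 6.64%. Cells of the 0 class still had 31.4 CPM of Zscan4 in their full counts. The part of depth and of mitochondrial content in the differences was not tested.

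Within partner-rich cells the level of each gene was also lower with at least 10 than with 0 Zscan4 UMIs. Unlike over all cells, the share with Sox17 was lower there too. Among those with 0 Zscan4 UMIs Gata6 was detected in 82.5% of 206 cells and had 532 CPM, and among those with at least 10 it was in 11 of 33 cells and had 69.0 CPM. Sox17 went from 51.0% and 146 CPM to 2 of 33 cells and 6.63 CPM, Foxq1 from 387 to 83.6 CPM, and Pdgfra from 157 to 51.7 CPM. Sox7 and Foxa2, at 30.9 and 14.4 CPM with 0 Zscan4 UMIs, were found in 0 of those 33 cells, which limits the share of cells with a UMI, not of cells expressing the gene, to 9.09% by 3 counts or 10.6% by the exact interval.

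In cells with at most 2 partner UMIs the share with Sox17 was higher at more Zscan4 UMIs. It was detected in 2.92% (2.13 to 3.90) of 1506 such cells with 0 Zscan4 UMIs, 4.08% of 956 with 1 to 2, 7.42% of 485 with 3 to 9 and 13.1% (9.85 to 16.9) of 374 with at least 10. Without thinning its share was 16.6% with at least 10 and 8.61% with 0 Zscan4 UMIs. There the Zscan4 and partner UMIs were also counted unthinned, so those classes were not made of the same cells. In the classes at equal depth the level of Sox17 was 3.87 CPM with 0 Zscan4 UMIs, 3.74 CPM with 1 to 2 and 13.6 CPM with at least 10. Gata6 was in 5.98%, 6.90%, 8.04% and 8.02% of the same cells, with overlapping intervals, and its level was 10.2, 9.40, 11.1 and 9.80 CPM. By the size rule, at least 10 against 0 Zscan4 UMIs, Sox17 was called higher, with a ratio of 3.51 (2.76 to 4.44), and Gata6, Gata6os, Gata4, Foxq1 and Pdgfra were not, which makes 1 of 6 genes with 50 UMIs; over all genes the share was 10.9%. Foxq1, though not called, had a ratio of 1.78 (1.33 to 2.37). Foxa2 (7 and 11 UMIs, ratio 3.85, 1.26 to 10.9) and Sox7 (10 and 21 UMIs, ratio 2.88, 1.21 to 6.38) were below 50 UMIs. The Foxa2 share was 1.60% against 0.199%, 6 and 3 cells, with intervals apart as for Sox17, and whether the genes differ in this was not tested.

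In these cells Sox17 had 0.380 UMIs per Gata6 UMI (0.321 to 0.448) at 0 Zscan4 and 1.39 (1.04 to 1.86) at 10 or more. Foxq1 per Gata6 UMI was also higher there, 0.417 (0.354 to 0.489) and 0.771 (0.548 to 1.08), and the intervals of Pdgfra, 0.204 to 0.303 and 0.212 to 0.523, overlap. The partner-rich cells with 0 Zscan4 had 0.274 (0.255 to 0.294) for Sox17 and 0.727 (0.691 to 0.764) for Foxq1. Sox17 as the sole gene of the 7 showed the same order: its share among cells with none of the others was 2.81%, 4.13%, 7.36% and 11.9% over the Zscan4 classes, and 0.507% (0.295 to 0.810) in the negative library. Other genes as the sole one were also more frequent in higher classes. Gata6 alone stood at 6.31%, 7.85%, 10.5% and 9.60%, with intervals apart between 0 (5.16 to 7.64) and 3 to 9 (8.02 to 13.4). Pdgfra alone stood at 1.96% (1.31 to 2.80), 3.23%, 5.16% (3.40 to 7.47) and 3.97%. Foxq1 went from 3.13% to 5.83%, Sox7 from 0.274% to 1.45% and Foxa2 from 0.206% to 1.45% between the end classes, each with overlapping intervals, and Gata4 had 1.09% and 1.17%.

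**Figure D5:**
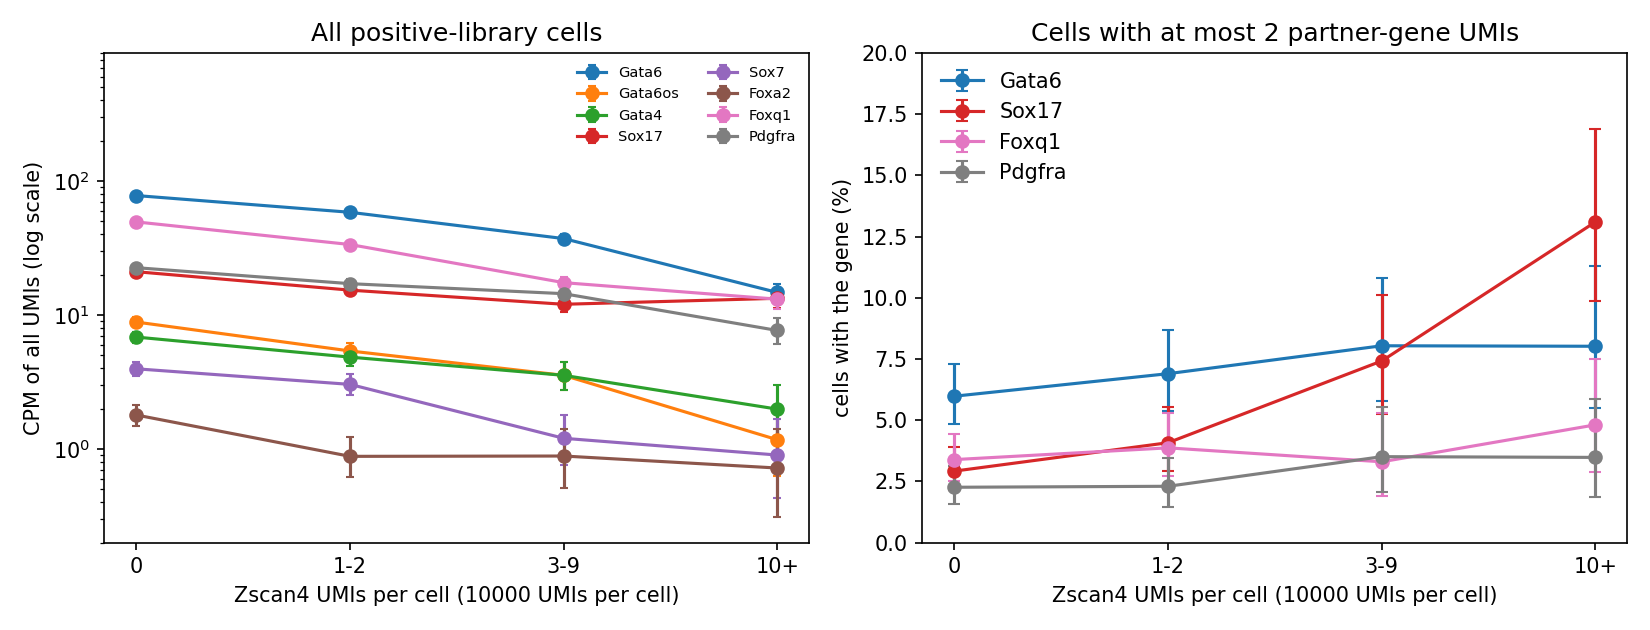
Left: level (CPM, log axis, 95% Poisson intervals) of the 8 genes in positive-library cells by Zscan4 UMIs at 10000 UMIs per cell. Right: share of cells (%, 95% exact binomial intervals) with 4 of the genes among cells with at most 2 partner-gene UMIs, where Sox17 goes from 2.92% to 13.1% and Gata6 from 5.98% to 8.02%.

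The genes whose counts per cell followed the sum of the 7 most closely included Lama1, Lamb1, Col4a1 and Col4a2, which encode basement membrane chains, in both libraries, 4 of the first 10 in each. By Pearson's r of log2(UMIs + 1) over 4402 positive-library cells, the first 10 of 17475 genes were Serpinh1 (a collagen chaperone, r = 0.66), Lama1, Lamb1, Col4a1, Col4a2, Dab2, Flrt3, Fbp2, Runx1 and Sparc (r = 0.56). Over 3824 negative-library cells they were Fbp2 (r = 0.77), Col4a1, 2210409E12Rik, Runx1, Lamb1, Col4a2, Lama1, Serpinh1, Shkbp1 and Lrpap1 (r = 0.65). The lists share 7 genes: Col4a1, Col4a2, Fbp2, Lama1, Lamb1, Runx1 and Serpinh1. All cells of a library share its preparation, and these values are a description. Among the set itself, r between Gata6 and Foxq1 was 0.64 in the positive and 0.75 in the negative library, and between Gata6 and Sox17 it was 0.47 and 0.71.

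Cells with at least 2 of the 7 genes were compared with cells with none, within each library. Of 15 structural and endocytic endoderm genes, 14 were called higher in each library, where 5.39% of 16839 genes in the positive and 7.74% of 15887 genes in the negative library were; Nid1 was not called. Sparc, a matrix protein, had 1329 against 177 CPM in the positive and 1062 against 73.5 CPM in the negative library. Dab2 had 533 against 17.5 CPM and 296 against 2.97 CPM. Of the pluripotency factors, 8 of 12 were called lower in the positive and 7 of 12 in the negative library, against 12.5% and 10.9% of all genes; 0 and 1 were called higher, the latter Tbx3, at 518 against 241 CPM in the negative library. Nanog, the factor that opposes Gata6, had 83.8 against 469 CPM in the positive and 27.8 against 203 CPM in the negative library. Sox2 had 97.5 against 529 CPM and 115 against 557 CPM, whereas Pou5f1 (Oct4) was not called, at 270.2 against 285 CPM and 373 against 389 CPM.

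Among 12 genes of FGF-ERK and PDGF signalling, the ligand gene Fgf4 was lower in cells with at least 2 of the genes, 21.9 against 133 CPM in the positive and 13.3 against 88.9 CPM in the negative library. Of the FGF receptor genes in the list, Fgfr2 was higher, 20.9 against 4.98 CPM and 46.7 against 2.00 CPM. Fgfr1 went the other way, with ratios of 0.526 in the positive and 0.566 in the negative library, and was not called. Pdgfa, which encodes a ligand of the Pdgfra receptor, was not called, at 86.5 against 80.8 CPM and 46.1 against 40.5 CPM. Of the list, 1 gene in the positive and 2 in the negative library were called higher and 3 in each lower. Of the other endoderm regulators tested, 4 of 10 and 4 of 9 were higher and 3 in each library lower. Over all genes, 5.39% were called higher and 12.5% lower in the positive library, and 7.74% and 10.9% in the negative library. Otx2, a homeobox factor, had 1.26 against 8.86 CPM in the positive and 2.53 against 20.2 CPM in the negative library.

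Markers of more mature or other cell types were read in the same cells. The shares over all genes beside these counts are again 5.39% higher and 12.5% lower in the positive library, and 7.74% and 10.9% in the negative library. Of 8 visceral endoderm markers, 3 of 6 tested were higher (Cubn, Amn and Apoa1) and 3 lower (Afp, Apob and Rbp4) in the positive library, and 2 of 4 were higher (Cubn and Amn) and 0 lower in the negative library. In positive-library cells with at least 2 of the genes, Ttr had 0.0665 CPM, Afp 0.266 CPM and Cer1 0 UMIs, and Rbp4, also a secreted product, had 5.05 against 12.1 CPM. Of the parietal endoderm markers, 6 of 7 tested were higher in each library, and the list summed to 1875 against 224 CPM and 1508 against 96.7 CPM. Most of these sums came from Sparc, at 1329 against 177 CPM and 1062 against 73.5 CPM. Lama1, a partner gene, added 444 against 22.9 CPM and 361 against 11.6 CPM. Fibroblast markers summed to 7.25 against 14.5 CPM and 2.97 against 3.89 CPM, with 0 higher and 2 lower of 4 and of 3 tested. The endothelial and blood list summed to 137 against 53.0 CPM and 184 against 34.7 CPM, of which Runx1 made 109 against 4.83 CPM and 151 against 2.72 CPM. Runx1, Cdh5 and Lmo2 were called higher in both libraries. Of 7 tested in the positive library 4 were called lower: Kdr (0.266 against 0.587 CPM), Pecam1 (15.9 against 40.5 CPM), Tek (1.33 against 4.48 CPM) and Gata1. Of 6 tested in the negative library Tek and Gata1 were called lower. Of the mesoderm markers, 1 was higher and 3 lower of 4 tested in the positive library, and 1 higher and 2 lower of 5 in the negative library. They summed to 7.71 against 8.08 CPM and 6.49 against 5.33 CPM, and the one called higher in both was Eomes (6.12 against 2.89 CPM and 4.51 against 1.67 CPM). Of the trophoblast markers, 0 were higher and 3 lower of 6 tested in the positive library, and 2 higher and 3 lower of 6 in the negative library. Their sums were 78.4 against 69.6 CPM, of which Krt18 made 55.6 against 29.3 CPM, and 40.7 against 58.7 CPM.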

How the data were processed

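The authors deposited integer counts for every gene in every cell. They are taken as UMIs from the 16-base cell barcodes, since molecule counting is not stated. FastQC 0.11.2, Trim Galore 0.6.4, STAR 2.7.6a and mm10 are named per the submitters' processing notes; annotation and cell calling are not given in the sources used here. The labels' extraction text describes a total RNA kit and a bulk library kit. Cells with at least 1000 UMIs, 500 genes and at most 20% mitochondrial UMIs were kept (7 removed). No doublet caller was applied. Sums were scaled to CPM; ratios have exact conditional intervals at 95%. Shares use cells thinned to 10000 UMIs (194 and 8 cells were shallower) with Clopper-Pearson intervals. No test was run. Of 55414 Ensembl IDs, 52133 are in GENCODE M21, and 901 symbols repeat. Alternatives changed filters, scaling, thresholds and thinning. All 8 genes are named; other named genes are the 10 most alike and list members, of which those of highest level or known role are given. The genes and lists were chosen with earlier results of these data known, and the classes of Zscan4 and partner UMIs combined after seeing the data. Steps were tested on simulated data. Tools were edgeR 4.0.16 in R 4.3.3, and matplotlib 3.10.9, pandas 2.3.3, scipy 1.17.1 and numpy 2.4.6 in Python 3.11.15.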

Additional observations from a re-analysis of the deposited data

How the results depend on the processing

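No paired analysis was possible because there is 1 library per group, and no replicate could be left out. None of the 8 genes was called between the libraries under any cell filter or scaling tried; the other thresholds could not have changed this, being stricter or dropping a minimum that all 8 pass. The summed log2 ratio between libraries, 0.63, was 0.33 under TMM, 0.34 under median of ratios, 0.54 by cell means of CPM and 0.58 with ribosomal protein and mitochondrial genes left out of the totals. Among single genes, Gata6os turned to -0.21 under TMM, -0.21 under median of ratios and -0.07 by cell means. Over all genes, 3533 higher and 480 lower calls became 241 and 1 with a ratio of CPM + 1 of at least 4 and at least 10 CPM, and 7819 and 1334 with no minimum of UMIs; TMM and median of ratios gave 1099 and 1095 lower. The share of cells with at least 2 genes, 10.7% and 5.67%, was 7.83% in the positive library at 5000 UMIs, 19.1% and 8.30% without thinning, and 6.29% and 4.81% where a gene needed 2 UMIs; at least 3 genes were found in 7.20% and 4.73%.

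The summed log2 ratio by Zscan4, -0.77, was -0.49 at 5000 UMIs, -0.66 with another draw, -1.31 from 3 Zscan4 UMIs, -1.81 from 10 and -0.20 by GFP. By GFP, Gata6os turned to 0.08 and Pdgfra to 0.10. The count of the 8 genes called lower, 2, was 1 without cells above 2 times the median UMIs, 0 at 5000 UMIs, 1 without thinning, 1 with another draw, 6 from 3 UMIs, 7 from 10 and 0 by GFP. The share with at least 2 genes, 8.92% with and 13.0% without Zscan4, was 6.09% and 9.16% at 5000 UMIs, 18.9% and 20.3% without thinning and 10.9% and 10.4% by GFP, where the order turned; with Zscan4 it was 7.80% from 3 UMIs and 5.43% from 10. The Sox17 share in cells with at most 2 partner UMIs, 13.1% against 2.92%, was 7.39% against 2.34% at 5000 UMIs and 16.6% against 8.61% without thinning. At 5000 UMIs, without thinning and with another draw, the Zscan4 and partner UMIs were counted anew as well. The classes compared there could therefore hold other cells. The causes of these shifts were not tested. The split at 10 Zscan4 UMIs, its crossing with partner UMIs and the runs without shared barcodes were chosen after seeing the data.

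Depth limits Foxa2 and Sox7 most, at 112 to 418 UMIs a library. Doublets remain in all values, intervals cover counting error alone, and absence of a UMI is not absence of the transcript.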

Other observations

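Among regulators outside the set, Foxa1, the paralogue of Foxa2, had a pattern of its own; it and the genes that follow here were picked after their values were seen. Foxa1 had 9.16 CPM in the positive and 0.480 CPM in the negative library, and its log2 ratio between positive-library cells with and without Zscan4 was 1.38, where that of Foxa2 was -1.06. In positive-library cells with at least 2 of the 7 genes it had 4.79 CPM against 9.17 CPM in cells with none, which was not called, and in the negative library it was called higher, 2.75 against 0.330 CPM. Snai1, a transcription factor of cell migration that is used as a parietal endoderm marker, had 23.6 against 1.98 CPM between libraries and a log2 ratio by Zscan4 of 1.32, and it was higher in cells with at least 2 of the genes, 71.7 against 14.4 CPM in the positive and 18.6 against 0.947 CPM in the negative library. Nanog, which was lower in cells with at least 2 of the genes, was higher in the positive than in the negative library, 409.7 against 192 CPM.

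Of the 472 positive-library cells with at least 2 of the genes, 46.4% had a Zscan4 UMI, against 56.9% of the other cells of that library, and 19.7% had at least 3. With at least 10 Zscan4 UMIs there were 27, with a median of 18292 UMIs. They had 227 CPM of Dab2 and 138 CPM of Nanog, where the 253 cells with at least 2 of the genes and 0 Zscan4 UMIs had 557 and 67.1 CPM, and the 339 cells with none of the genes and at least 10 Zscan4 UMIs had 33.5 and 298 CPM. By these values the 27 cells did not lie between the other groups for every gene: Sox2 had 77.0 CPM, against 92.1 and 167 CPM, and Zfp42 213 CPM, against 228 and 369 CPM. No intervals were computed for these groups, and whether the gaps to 92.1 and 228 CPM exceed counting error was not tested.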
